A study of Mus musculus with 8 samples.

Results

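The adenylyl cyclases described here are *Adcy1*, *Adcy2*, *Adcy5*, *Adcy6*, *Adcy7*, *Adcy8* and *Adcy9*, membrane-bound members of the family other than *Adcy3*. They were chosen by name and not by a measured value, though with earlier results of these data known. *Adcy4*, also membrane-bound, was at or under the floor of detection and is not among them. They are 7 of the 45706 genes in the count table and 7 of the 10 genes of the adenylyl cyclase family, and 7 of 7 passed the filter on low counts. The comparison of main interest among them sets the calcium-stimulated cyclases (*Adcy1* and *Adcy8*) against the cyclases that are inhibited by Gi (*Adcy5* and *Adcy6*).

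Adenylyl cyclases make cyclic AMP (cAMP) from ATP. All membrane-bound forms are activated by the alpha subunit of Gs, and they differ in what else acts on them. Calcium with calmodulin activates the products of *Adcy1* and *Adcy8*, which are known for coupling calcium entry to cAMP in hippocampal neurons. The alpha subunit of Gi inhibits the products of *Adcy5* and *Adcy6*, which free calcium also inhibits. The class names used here mark a known input and do not mean that Gi has no action on the other cyclases. G protein beta-gamma subunits enhance the Gs response of the products of *Adcy2* and *Adcy7*, and the product of *Adcy9* is known for its low sensitivity to forskolin. cAMP activates protein kinase A and the exchange factors of the Epac family, and protein kinase A phosphorylates the transcription factor CREB, which binds the cAMP response element. The receptor for melanin-concentrating hormone (MCH), encoded by *Mchr1*, couples to Gi and to Gq.

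Hippocampal neurons from *Wt* C57/Bl6 mouse embryos at day 18 were treated in culture for 4 h with 1 µM MCH peptide, or with water as vehicle, and were harvested at 12 to 14 days in vitro. There were 4 wells per treatment, numbered as replicates 1 to 4, and they came from 2 cultures made independently, each of which gave 2 wells to either treatment. The culture behind each replicate number was not given in the sources used here, so *P* values measure the spread between these wells, which may in part be technical. The labels carry a disease-model tag for Alzheimer's disease alongside a wild-type genotype, and the neurons were treated here as wild type. Both treatments therefore share strain, genotype, age and culture conditions and differ in the peptide alone. Bulk poly-A RNA was sequenced, so fewer cells of a type and less RNA per cell cannot be told apart.

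Library totals ranged from 26083936 to 31844861 estimated counts. Replicates 1 and 2 of both treatments stood apart from replicates 3 and 4 on the first principal component, which held 63.4% of the variance, and 5194 genes (34.7%) differed between these sides. Neuronal markers were detected in every well, with a summed level of 7350 to 7530 CPM in replicates 1 and 2 and of 6890 to 7050 CPM in replicates 3 and 4. Here CPM are counts scaled to the size of the library with TMM factors. The 8 astrocyte markers summed to 1090 to 1200 CPM in replicates 1 and 2 and to 2320 to 2660 CPM in replicates 3 and 4. By treatment the astrocyte sums overlapped, at 1090 to 2510 CPM with vehicle and 1160 to 2660 CPM with MCH. The MCH receptor gene *Mchr1* was at 9.91 ± 0.82 CPM with vehicle and 9.70 ± 0.297 CPM with MCH (mean ± SD, n = 4 each), a log2 fold change of −0.03.

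Levels of different genes were compared as TPM, the Salmon abundance unit that is scaled for transcript length and depth. *Adcy1* had the highest level of the 7 cyclases, at 93.3 ± 6.78 TPM (SD, n = 8 wells), followed by *Adcy5* at 44.8 ± 3.24 TPM and *Adcy2* at 32.6 ± 1.54 TPM. *Adcy6* (13.7 ± 0.797 TPM) and *Adcy9* (13.6 ± 1.1 TPM) were at nearly the same level. *Adcy8* was at 4.43 ± 0.675 TPM and *Adcy7* at 0.63 ± 0.106 TPM. Each gene in this order lay above the next in all 8 wells without overlap, except for *Adcy6* and *Adcy9*, which differed by 1.01-fold, overlapped, and had *Adcy6* higher in 5 of 8 wells. The steps were 2.08-fold from *Adcy1* to *Adcy5*, 1.37-fold from *Adcy5* to *Adcy2*, 2.38-fold from *Adcy2* to *Adcy6*, 3.08-fold from *Adcy9* to *Adcy8* and 7.03-fold from *Adcy8* to *Adcy7*. The order was the same when CPM per kilobase of annotated exon replaced TPM. The levels themselves were then higher and moved by unequal factors, for example to 209 for *Adcy1* and 6.09 for *Adcy8* after scaling to the summed TPM of the tested genes.

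**Figure D1:**
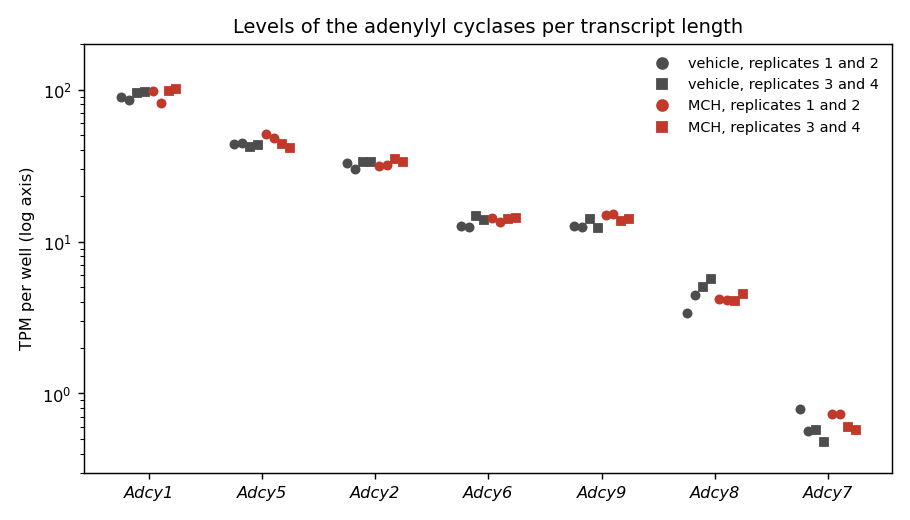
TPM of the 7 adenylyl cyclases in each of the 8 wells on a log axis, with vehicle in grey and MCH in red, circles for replicates 1 and 2 and squares for replicates 3 and 4. The genes form steps from *Adcy1* at 81.6 to 101 TPM down to *Adcy7* at 0.478 to 0.788 TPM, and *Adcy6* and *Adcy9* overlap.

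As a share of the summed TPM of the whole family, *Adcy1* held 38.6% ± 1.79, *Adcy5* 18.6% ± 1.43 and *Adcy2* 13.5% ± 0.562 (SD, n = 8 wells). *Adcy3*, the cyclase of primary cilia and olfactory neurons, held 15.9% ± 0.836. *Adcy6* held 5.68% ± 0.188, *Adcy9* 5.65% ± 0.406, *Adcy8* 1.84% ± 0.282 and *Adcy7* 0.261% ± 0.0459. *Adcy1* and *Adcy5* thus held more of the family's transcripts than the other members at this depth, and *Adcy7* held the least. *Adcy4* reached at most 2 counts and the soluble cyclase *Adcy10* at most 1 count in any well, at or under the floor of 3 counts, and neither was tested. *Adcy8* is expressed from few reads (248 to 431 counts per well) and *Adcy7* from fewer (44 to 77 counts), against 15297 to 21417 counts for *Adcy1*.

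Promoter sequence from RefSeq (GRCm38.p6) was found for 5 of the 7 genes, in 7 promoters. There was no entry for *Adcy6* and *Adcy8*. The 250 bases before the start site are given for the cyclase with the highest level of each class in the main comparison, *Adcy1* (chr11:7063183-7063432, plus strand) and *Adcy5* (chr16:35154614-35154863, plus strand). They are also given for the promoters that hold the half-site of the cAMP response element (CRE), *Adcy7* (the first of its 3 promoters, chr8:88282742-88282991, plus strand) and *Adcy9* (chr16:4420499-4420748, minus strand). Each is written 5′ to 3′ on the strand of the gene. The CRE half-site TGACG, or CGTCA when it lies on the other strand, is in capitals.
Adcy1: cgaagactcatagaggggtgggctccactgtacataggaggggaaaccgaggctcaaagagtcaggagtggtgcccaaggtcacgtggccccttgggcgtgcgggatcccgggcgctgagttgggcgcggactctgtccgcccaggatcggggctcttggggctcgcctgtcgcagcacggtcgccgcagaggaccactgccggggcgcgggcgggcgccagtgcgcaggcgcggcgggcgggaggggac
Adcy5: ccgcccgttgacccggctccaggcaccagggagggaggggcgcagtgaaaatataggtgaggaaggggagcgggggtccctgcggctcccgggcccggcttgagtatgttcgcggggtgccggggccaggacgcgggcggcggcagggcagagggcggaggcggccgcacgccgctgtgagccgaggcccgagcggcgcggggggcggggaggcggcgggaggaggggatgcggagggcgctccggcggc
Adcy7: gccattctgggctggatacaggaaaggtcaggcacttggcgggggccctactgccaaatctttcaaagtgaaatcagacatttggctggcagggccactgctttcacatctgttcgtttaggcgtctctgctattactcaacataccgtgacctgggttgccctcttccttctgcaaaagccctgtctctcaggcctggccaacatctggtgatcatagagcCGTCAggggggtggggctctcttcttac
Adcy9: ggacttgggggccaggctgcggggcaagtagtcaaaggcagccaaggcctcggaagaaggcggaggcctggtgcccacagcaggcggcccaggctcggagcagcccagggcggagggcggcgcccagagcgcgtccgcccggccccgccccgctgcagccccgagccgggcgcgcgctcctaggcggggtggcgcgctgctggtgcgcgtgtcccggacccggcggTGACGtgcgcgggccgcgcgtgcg

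Both strands were searched for the full element TGACGTCA and for the half-site, which the full element contains. The half-site began 28 bases before the start in the printed *Adcy7* promoter and 24 bases before it in the *Adcy9* promoter. It was in 2 of the 7 cyclase promoters and the full element in 0 of 7, beside 17.8% and 1.55% of all 32851 promoters of the same length. Among known targets of cAMP and CREB (the output genes described further on), 16 of 23 promoters held the half-site. By gene, these were 14 of the 15 genes with an entry, and 4 of the 15 had the full element in a promoter. The shares over all promoters are not a measure for these counts by gene, since a gene can have several promoters. The *Adcy1*, *Adcy5*, *Adcy2* and *Adcy9* promoters were rich in G and C, at 71.2%, 78.0%, 73.2% and 78.8%, against a median of 52.4% over all promoters. The 3 promoters of *Adcy7* were nearer that median, at 54.0%, 56.0% and 56.4%. A match gives letters in this window and not a site in use.

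None of the 7 cyclases was differentially expressed (DE) between MCH and vehicle. In edgeR's quasi-likelihood fit over all genes, 0 of 7 passed a Benjamini–Hochberg adjusted *P* of 0.05. Beside them, 35 of 14962 genes passed (0.234%), 31 of them lower (0.207%) and 4 higher (0.0267%) with MCH. The wells of the treatments overlapped for each cyclase, whereas they did not overlap for 902 of all genes tested (6.03%). By sign, 6 of 7 cyclases had a log2 fold change above 0, against 49.0% of all genes, and the median of the 7 was 0.04, against −0.0027 over all genes. In absolute size the median log2 fold change was 0.07 for the cyclases and 0.07 for all genes.

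**Figure D2:**
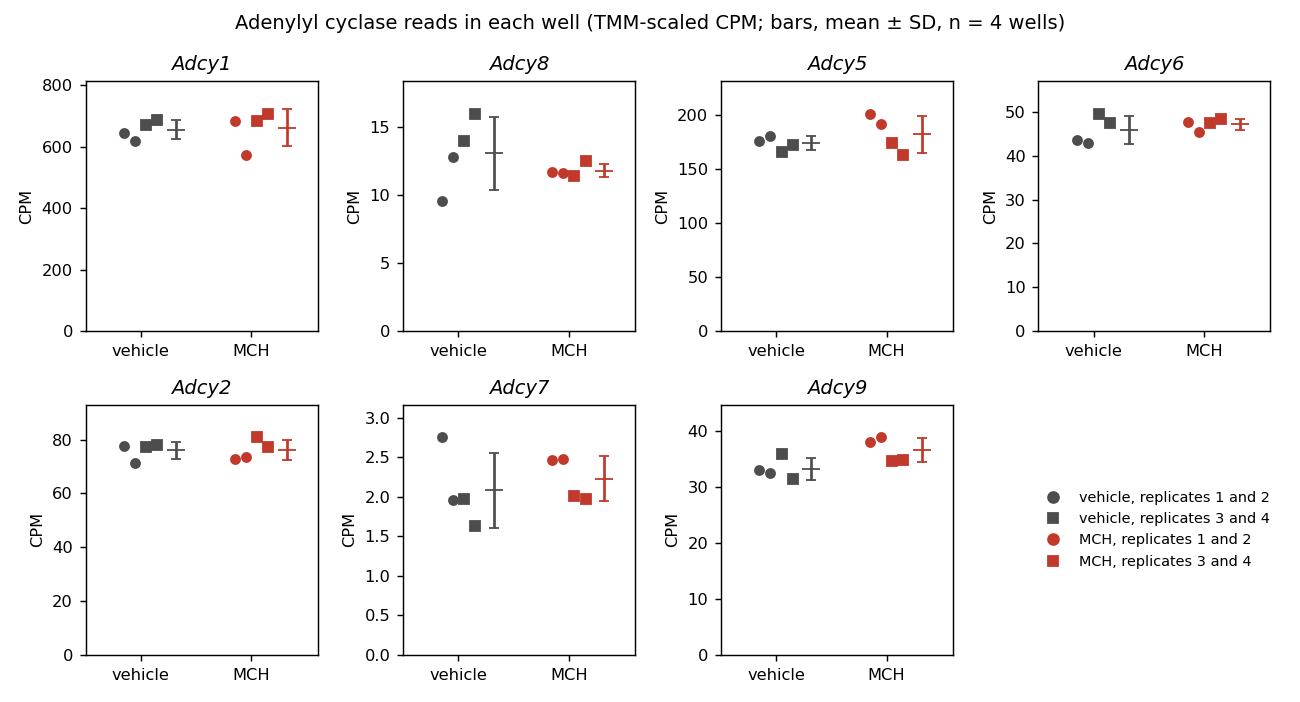
TMM-scaled CPM of each adenylyl cyclase in each well, with vehicle in grey and MCH in red, circles for replicates 1 and 2, squares for replicates 3 and 4, and bars for the mean ± SD of 4 wells. Every axis starts at 0, and the treatments overlap in each of the 7 panels.

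*Adcy1* (ENSMUSG00000020431; GRCm38 chr11:7063489-7178506, plus strand) encodes the calcium-stimulated cyclase with the highest level. Its values were 643, 618, 670 and 688 CPM in vehicle replicates 1 to 4 and 684, 574, 684 and 707 CPM in MCH replicates 1 to 4. The lowest and the highest well were both MCH-treated, and the treatments overlapped. The means were 655 ± 30.8 CPM and 662 ± 59.8 CPM, a log2 fold change of 0.02 (SE 0.07, 95% interval −0.13 to 0.17), with an edgeR adjusted *P* of 1.0. The two-sided exact permutation test over wells gave *P* = 0.886, where the smallest value the design allows is 0.0286. The interval spans 0.913-fold to 1.12-fold.

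*Adcy8* (ENSMUSG00000022376; chr15:64697084-64922296, minus strand), the other calcium-stimulated cyclase, was at 9.60, 12.8, 14 and 16 CPM in vehicle replicates 1 to 4 and at 11.7, 11.6, 11.4 and 12.5 CPM in MCH replicates 1 to 4. The MCH-treated wells lay close together inside the wider range of the vehicle-treated wells. The means were 13.1 ± 2.68 CPM and 11.8 ± 0.49 CPM. The log2 fold change of −0.15 (SE 0.13, 95% interval −0.45 to 0.15) was the only negative one of the 7 and did not pass the edgeR test (adjusted *P* = 0.857), and the exact permutation test gave *P* = 0.429. In the fit of replicates 1 and 2 alone the log2 fold change was 0.07 and in that of replicates 3 and 4 alone −0.32, so its sign differed between the sides. The adjusted *P* in the latter was 0.156, in a range of 0.156 to 1.0 over all fits of *Adcy8*, and the difference between the sides was not tested.

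Of the cyclases inhibited by Gi, *Adcy5* (ENSMUSG00000022840; chr16:35154877-35305738, plus strand), the main cyclase of striatal neurons, was at 176, 180, 166 and 172 CPM in vehicle replicates 1 to 4 and at 201, 191, 174 and 163 CPM in MCH replicates 1 to 4. MCH replicates 1 and 2 were the highest wells and MCH replicate 4 was the lowest. The means were 174 ± 6.16 CPM and 182 ± 16.9 CPM, a log2 fold change of 0.07 (SE 0.06, 95% interval −0.07 to 0.21) with an edgeR adjusted *P* of 0.859 and an exact permutation *P* of 0.429. In replicates 1 and 2 alone the log2 fold change was 0.15 (SE 0.04, edgeR adjusted *P* = 0.108, the lowest of a range up to 1.0 over its fits), and in replicates 3 and 4 alone it was −0.0021 (SE 0.04). Summed striatal projection neuron markers were low, at 97.2 to 115 CPM with vehicle and 90.1 to 101 CPM with MCH over 8 genes. *Tac1* (51.2 CPM with vehicle and 46.5 CPM with MCH), *Penk* (26.2 and 22.4 CPM) and *Drd1* (11 and 9.19 CPM) made up most of the sum, while *Drd2* (0.70 and 0.72 CPM) and *Adora2a* (0.331 and 0.165 CPM) were near 0. The treatments did not overlap for *Penk* and *Drd1*, with edgeR adjusted *P* of 0.306 and 0.266, and of 0.0289 and 0.0621 when replicate numbers were blocked. The part of these cells in the *Adcy5* values was not tested.

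*Adcy6* (ENSMUSG00000022994; chr15:98589973-98610076, minus strand) was at 43.7, 43.0, 49.6 and 47.5 CPM in vehicle replicates 1 to 4 and at 47.7, 45.4, 47.4 and 48.3 CPM in MCH replicates 1 to 4. The MCH-treated wells lay within the range of the vehicle-treated wells. The means were 45.9 ± 3.16 CPM and 47.2 ± 1.25 CPM, and the log2 fold change of 0.04 (SE 0.05, 95% interval −0.08 to 0.16) gave an edgeR adjusted *P* of 0.943 and an exact permutation *P* of 0.457. An antisense gene, *Gm29331*, shares 605 exonic bases with *Adcy6* in the annotation, and it had at most 1 count in any well.

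The classes were then compared within wells. *Adcy1* and *Adcy8* together held 40.9% ± 1.19 of the family's TPM with vehicle and 39.9% ± 2.49 with MCH, and *Adcy5* and *Adcy6* together 24.1% ± 0.89 and 24.4% ± 1.83 (SD, n = 4). The log2 ratio of the summed TPM of *Adcy1* and *Adcy8* to that of *Adcy5* and *Adcy6* was 0.72, 0.66, 0.83 and 0.85 in vehicle replicates 1 to 4 and 0.64, 0.48, 0.80 and 0.92 in MCH replicates 1 to 4. Every well was above 0, which means that the calcium-stimulated class had the higher summed level in each of the 8 wells. The means were 0.77 ± 0.09 with vehicle and 0.71 ± 0.19 with MCH, a difference of −0.06 that is smaller than the SD of either treatment. No test was applied to this ratio, since the members were chosen with results of these data known.

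*Adcy1* made up most of the calcium-stimulated sum. It was 1.69 to 2.44 times the TPM of *Adcy5* and 6.07 to 7.06 times that of *Adcy6* over the wells. *Adcy8* was 0.077 to 0.131 times *Adcy5* and 0.265 to 0.407 times *Adcy6*. Thus the members of a class did not share an order of level, since both Gi-inhibited genes lay above *Adcy8* and below *Adcy1* in every well. In the comparison of treatments the log2 fold changes differed in sign within the calcium-stimulated class (0.02 and −0.15) and had the same sign within the Gi-inhibited class (0.07 and 0.04), and none of these passed the test.

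In the class ratio the sides of the experiment differed more than the treatments. The log2 ratio was 0.48 to 0.72 in replicates 1 and 2 and 0.80 to 0.92 in replicates 3 and 4, without overlap, a difference of 0.22 between the means. Between treatments it differed by −0.13 within replicates 1 and 2 and by 0.02 within replicates 3 and 4. Of the single genes, *Adcy5* was the one cyclase whose sides did not overlap (176 to 201 CPM in replicates 1 and 2 and 163 to 174 CPM in replicates 3 and 4, a log2 difference of −0.15). Thus 1 of 7 cyclases was separated in this way, beside 4422 of all genes tested (29.6%). The log2 differences of the others, replicates 3 and 4 minus 1 and 2, were 0.13 for *Adcy1*, 0.23 for *Adcy8*, 0.10 for *Adcy6*, 0.09 for *Adcy2*, −0.34 for *Adcy7* and −0.05 for *Adcy9*. Besides the astrocyte sum, 3 marker sums of 8 genes each were higher in replicates 3 and 4 without overlap. The fibroblast or vessel markers summed to 56.1 to 59.6 CPM there, against 20.0 to 25.2 CPM in replicates 1 and 2. This was mostly through *Dcn* (42.1 against 15.6 CPM), while *Pecam1* (0.606 against 0.259 CPM) and *Cldn5* (0.0795 against 0.0 CPM) were near 0. The oligodendrocyte lineage markers summed to 126 to 147 CPM against 57.3 to 67.9 CPM, mostly through *Olig1* (92.5 against 24.3 CPM), while *Mbp* (36.4 against 33.6 CPM) and *Pdgfra* (1.66 against 1.6 CPM) were nearly level and *Sox10* and *Mog* were at 0. The microglia markers summed to 8.95 to 11.4 CPM against 5.47 to 7.4 CPM, with 7 of the 8 higher in replicates 3 and 4, *Csf1r* lower (2.95 against 3.22 CPM) and *Tmem119* at or under the floor in every well. Inhibitory neuron markers were higher in replicates 1 and 2, at 2740 to 2980 CPM against 2210 to 2480 CPM. The part of the cell types in the cyclase levels was not tested.

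**Figure D3:**
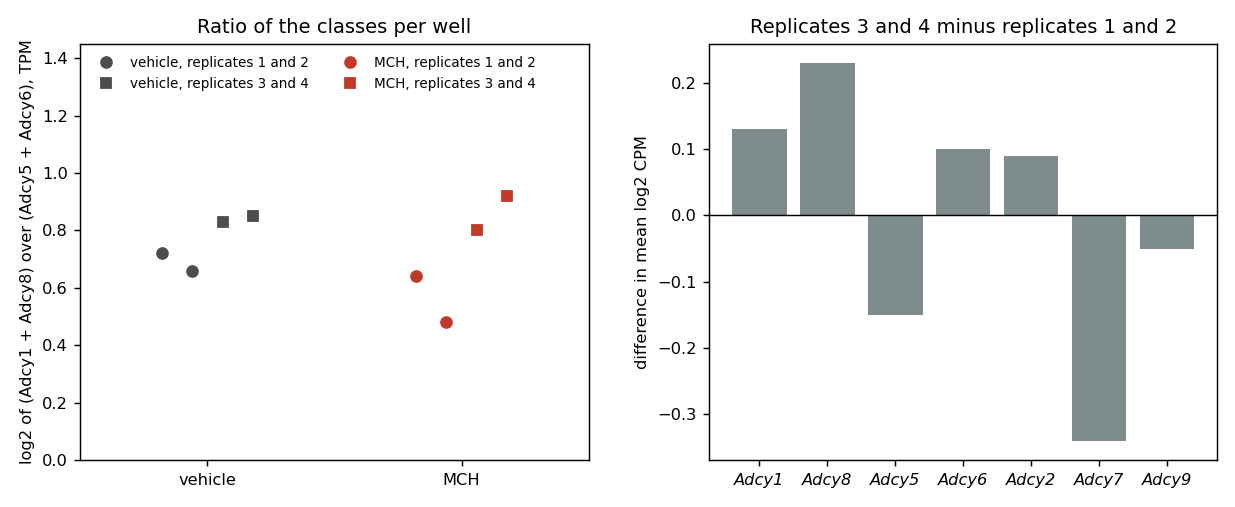
Left, log2 ratio of the summed TPM of *Adcy1* and *Adcy8* to that of *Adcy5* and *Adcy6* in each well, with circles for replicates 1 and 2 and squares for replicates 3 and 4. Right, difference in mean log2 CPM between replicates 3 and 4 and replicates 1 and 2 for each cyclase, from −0.34 for *Adcy7* to 0.23 for *Adcy8*. The squares lie above the circles in both treatments.

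Of the cyclases enhanced by G protein beta-gamma subunits, *Adcy2* (ENSMUSG00000021536; chr13:68620043-68999541, minus strand) was at 77.5, 71.1, 77.4 and 77.9 CPM in vehicle replicates 1 to 4 and at 72.9, 73.5, 80.8 and 77.3 CPM in MCH replicates 1 to 4. One well, vehicle replicate 2, lay below the other vehicle-treated wells, which were close together. The log2 fold change was 0.0027 (SE 0.05, 95% interval −0.10 to 0.11; means 76.0 ± 3.25 and 76.1 ± 3.67 CPM), with an edgeR adjusted *P* of 1.0 and an exact permutation *P* of 1.0. Its interval was the narrowest of the 7 and spans 0.931-fold to 1.08-fold. An antisense gene of the annotation, *Gm35161*, shares 189 exonic bases with *Adcy2* and is not a row of the count table.

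*Adcy7* (ENSMUSG00000031659; chr8:88272403-88329962, plus strand), best known from immune cells, was at 2.75, 1.96, 1.97 and 1.63 CPM in vehicle replicates 1 to 4 and at 2.46, 2.48, 2.01 and 1.97 CPM in MCH replicates 1 to 4. The highest and the lowest wells were both vehicle-treated. The log2 fold change of 0.10 (SE 0.20, 95% interval −0.34 to 0.54; means 2.08 ± 0.474 and 2.23 ± 0.279 CPM) had an edgeR adjusted *P* of 0.987 and an exact permutation *P* of 0.543. The interval spans 0.788-fold to 1.46-fold and was the widest of the 7.

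*Adcy9* (ENSMUSG00000005580; chr16:4287529-4420498, minus strand) came nearest to a difference. It was at 33.0, 32.5, 36.0 and 31.4 CPM in vehicle replicates 1 to 4 and at 38.0, 38.9, 34.7 and 34.9 CPM in MCH replicates 1 to 4, so that 3 of 4 MCH-treated wells were above the vehicle-treated well of the same number. Vehicle replicate 3 lay above MCH replicates 3 and 4, and the treatments overlapped through that well. The means were 33.2 ± 1.98 CPM and 36.6 ± 2.14 CPM, a log2 fold change of 0.14 (SE 0.06, 95% interval 0.01 to 0.27, 1.01-fold to 1.21-fold). The unadjusted edgeR *P* of 0.0405 was one of 1272 under 0.05 among all genes tested (8.5%), and the Benjamini–Hochberg adjusted *P* was 0.559. The two-sided exact permutation *P* was 0.0857. In replicates 1 and 2 alone the log2 fold change was 0.25 (SE 0.06, edgeR adjusted *P* = 0.0676) and in replicates 3 and 4 alone 0.05 (SE 0.07, edgeR adjusted *P* = 0.877). Over all fits the adjusted *P* of *Adcy9* ranged from 0.0676 to 0.935. Whether the sides differ in this was not tested.

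The result for the cyclases was also read in fits that took account of the sides and in another tool. With the replicate number as a block, 596 of all genes tested were DE (3.98%, with 2.25% lower and 1.73% higher), and with the sides as a block 668 (4.46%, with 2.61% lower and 1.85% higher). DESeq2 found 154 of 12902 genes (1.19%, with 0.721% lower and 0.473% higher). None of the 7 cyclases passed in any of these, nor in the other settings, 23 fits per gene in all, except that DESeq2 with the replicate block gave no adjusted *P* for *Adcy7*. With the replicate block the log2 fold change of *Adcy9* was 0.14 (SE 0.05, 95% interval 0.03 to 0.25) with an edgeR adjusted *P* of 0.167, and that of *Adcy5* 0.07 (SE 0.04, 95% interval −0.01 to 0.15) with an adjusted *P* of 0.376. In the unblocked fit the 95% interval was 0.21 wide on the log2 scale for *Adcy2*, 0.24 for *Adcy6*, 0.27 for *Adcy9*, 0.29 for *Adcy5* and 0.3 for *Adcy1*, narrower than the median of all genes (0.37), and 0.6 wide for *Adcy8* and 0.89 for *Adcy7*.

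**Figure D4:**
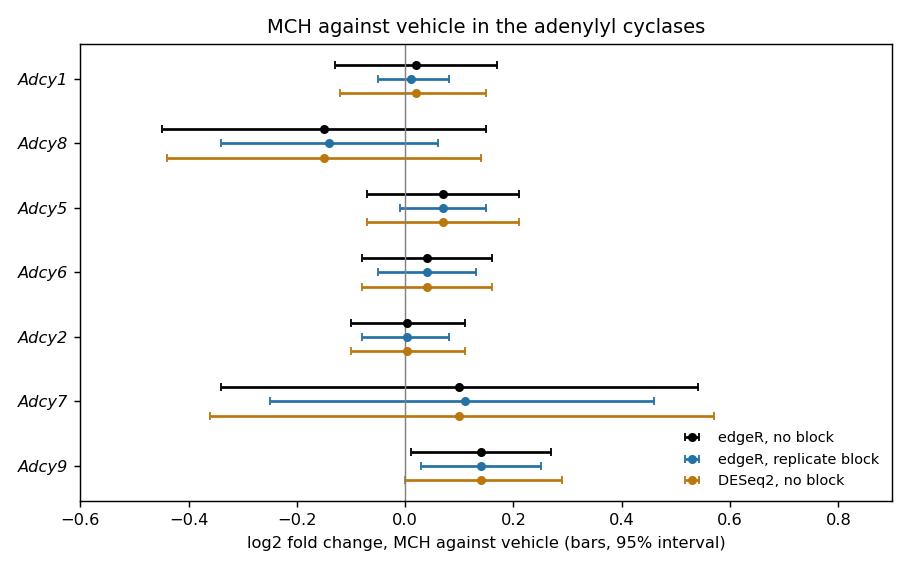
Log2 fold change of MCH against vehicle with its 95% interval for each adenylyl cyclase, from edgeR without a block (black), edgeR with the replicate block (blue) and DESeq2 without a block (orange). The estimates lie between −0.15 for *Adcy8* and 0.14 for *Adcy9*, and the interval is widest for *Adcy7*.

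At the level of transcripts, the quantifications held 13 for the 7 genes, and 9 passed the filter. None was DE, as was the case for all 33527 transcripts tested (0.0%), and 0 of the 9 had an unadjusted edgeR *P* under 0.05, beside 1476 (4.4%) of all. A single protein-coding transcript, Adcy1-201, held 99.9% of the TPM of *Adcy1*. For *Adcy8*, *Adcy5*, *Adcy6* and *Adcy2* the quantifications held a single transcript each. Its share of 100% was thus fixed in advance and does not measure a choice between transcripts. For these 5 genes the gene value is therefore the value of that transcript, or nearly so for *Adcy1*.

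*Adcy9* was divided between Adcy9-201 (41.6% of its TPM), Adcy9-202 (34.5%) and Adcy9-203 (24.0%). Adcy9-202 was assigned 651, 0, 0 and 668 reads in vehicle replicates 1 to 4 and 886, 426, 0 and 0 in MCH replicates 1 to 4, while Adcy9-201 was assigned 0, 651, 717 and 0 and then 0, 302, 681 and 808. Reads went to one or the other, and both were above 0 in MCH replicate 2 alone. These transcripts share 4457 bases, 98.9% of Adcy9-202 and 100% of Adcy9-201, so their reads could hardly be told apart and only the gene total is read here. Adcy9-203 had reads in every well, at 200, 245, 304 and 176 with vehicle and 303, 306, 321 and 185 with MCH (log2 fold change 0.19, edgeR adjusted *P* = 1.0). The reads of *Adcy7* were placed on one of Adcy7-201, Adcy7-203 and Adcy7-204 in each well and never on more than one, and Adcy7-202 had 0 reads in all 8 wells.

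The rest of the cAMP pathway was read from lists of 133 genes, of which 120 were tested and 5 were DE, all lower with MCH. Upstream of the cyclases, 0 of 9 G protein alpha subunit genes were DE, with a median log2 fold change of 0.0047 and a range from −0.12 (*Gnai3*) to 0.02 (*Gnal*, the alpha subunit that acts on the cyclase in olfactory and striatal neurons). Among receptors, 0 of 15 Gs-coupled ones (median −0.06) and 0 of 27 Gi-coupled ones (median 0.02) were DE. The values reached −0.63 for the prostaglandin receptor *Ptger4* and 0.29 for the VIP receptor *Vipr2*, and −1.01 and 0.71 for the serotonin receptors *Htr1b* and *Htr1a*. Levels were low for *Ptger4* (1.03 and 0.663 CPM with vehicle and MCH, SE 0.36) and *Vipr2* (1.04 and 1.27 CPM, SE 0.33), and their treatments overlapped. The Gi-coupled pair were at 2.35 and 1.16 CPM (*Htr1b*) and 5.28 and 8.65 CPM (*Htr1a*) with vehicle and MCH, with edgeR adjusted *P* of 0.148 and 0.158. Both passed with the replicate block (0.00848 and 0.000339) and in DESeq2 (0.0101 and 0.00595), as did the Gs-coupled receptor *Gpr3* (24.4 and 17.0 CPM, log2 fold change −0.52), at 0.0597 without the block, 0.000133 with it and 0.000134 in DESeq2. With the replicate block, 2 of the 27 Gi-coupled receptors were called lower and 3 higher, beside 2.25% and 1.73% of all genes. Besides *Htr1b* and *Htr1a*, these were *Sstr2*, *Oprl1* and *Npy2r*, with unblocked log2 fold changes of −0.23, 0.35 and 0.56. Their edgeR adjusted *P* was 0.00889, 0.002 and 0.0368 with the block, and 0.857, 0.322 and 0.393 without it. *Adcy3* had a log2 fold change of 0.0036 (SE 0.03).

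Downstream of the cyclases, 0 of 14 cAMP phosphodiesterases, which break cAMP down, were DE (median 0.03, from −0.20 for *Pde1c* to 0.38 for *Pde11a*). *Pde11a* was low, at 0.687 CPM with vehicle and 0.893 CPM with MCH (SE 0.27). Of the protein kinase A genes, 0 of 9 were DE (median −0.06, from −0.16 for *Prkar2a* to 0.11 for the inhibitor *Pkia*). Among Epac and A-kinase anchor genes, 0 of 14 were DE (median 0.05, from −0.09 for *Akap12* to 0.23 for *Akap9*). Of the calmodulin and calcineurin genes, which link calcium to the calcium-sensitive cyclases, 0 of 11 were DE (median −0.03, from −0.13 for *Rcan2* to 0.06 for *Ppp3ca*). With the replicate block the edgeR adjusted *P* of *Prkar2a* was 0.0373, against 0.417 without it. Outside the output genes, 0 of 100 pathway genes tested were DE, beside 0.234% of all genes, and 11 had an unadjusted edgeR *P* under 0.05, beside 8.5%. In the same 100 genes the replicate block called 7, beside 3.98% of all genes, the side block 9, beside 4.46%, and DESeq2 3 (*Gpr3*, *Htr1a* and *Htr1b*), beside 1.19%. At a share of 0.234%, a count of 0 in 100 genes, like one of 0 in 7, is near the background and says nothing particular to these genes.

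The 5 DE genes were output genes of cAMP and CREB signaling. These were the activity-regulated transcription factors *Fos* (62.7 ± 7.09 CPM with vehicle and 33.4 ± 2.36 CPM with MCH, log2 fold change −0.91, SE 0.08), *Fosb* (24.0 ± 1.53 and 13.8 ± 0.815 CPM, −0.80, SE 0.07) and *Nr4a2* (56.8 ± 2.17 and 43.2 ± 2.82 CPM, −0.39, SE 0.05), the salt-inducible kinase *Sik1* (38.9 ± 2.86 and 25.2 ± 1.23 CPM, −0.63, SE 0.06) and the synaptic gene *Arc* (56.2 ± 1.86 and 37.3 ± 2.45 CPM, −0.59, SE 0.05). The edgeR adjusted *P* was 0.00492 for *Fos*, *Fosb* and *Arc*, 0.0078 for *Sik1* and 0.0249 for *Nr4a2*. The log2 fold change was below 0 for 20 of the 20 output genes, with a median of −0.39 and a range from −1.05 (*Nr4a1*, edgeR adjusted *P* = 0.126 and 1.48e-06 with the replicate block) to −0.12 (*Sst*, adjusted *P* = 0.985). Their treatments did not overlap for 12 of 20, beside 6.03% of all genes tested. These genes were listed with earlier results of these data known, so their direction is not independent evidence, and many of them respond to calcium and ERK as well as to cAMP. The replicate block called 16 of 20, the side block 15 and DESeq2 9, all lower.

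**Figure D5:**
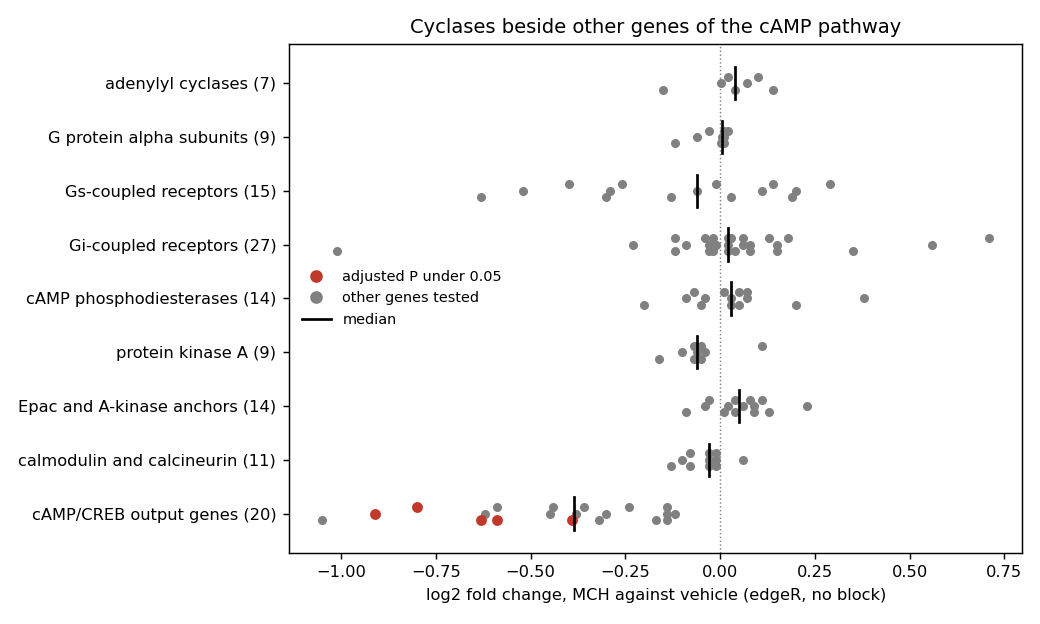
Log2 fold change of MCH against vehicle (edgeR, no block) for the 7 adenylyl cyclases and for the other genes of the cAMP pathway by list, with the number of genes tested in parentheses, black bars for medians and red for an adjusted *P* under 0.05. The cyclases lie between −0.15 and 0.14, and the red points are all among the output genes, whose median is −0.39.

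For each cyclase, the tested gene with the most similar profile over the 8 wells was found as the smallest mean absolute difference in log2 CPM, each gene centred on its own mean. It was *Rpgr*, a ciliary gene, for *Adcy1* (0.0314, against a median of 0.134 over all genes), *Fggy* for *Adcy8* (0.0691 against 0.198), *Syt3*, a synaptotagmin, for *Adcy5* (0.0185 against 0.122) and *Agrn*, which encodes agrin, for *Adcy6* (0.0156 against 0.122). It was *Tbc1d16* for *Adcy2* (0.0142 against 0.116), *A330008L17Rik* for *Adcy7* (0.0605 against 0.219) and *Sema3e*, a semaphorin, for *Adcy9* (0.0214 against 0.135). Each is the nearest of many genes over 8 wells that share cultures and depth, and the likeness is a description.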

How the data were processed

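Estimated counts and TPM of 8 wells were analysed, grouped by the treatment in the sample labels. Quantification was done by the authors before deposition, with Salmon as part of nf-core/rnaseq and with GRCm38 as the genome. The submitters' processing notes also name R 4.0.3 and DESeq2 1.13.0. The deposited gene table holds estimated counts, not normalized, of which 9.13% are not whole, and they were rounded here. The deposited transcript tables hold estimated counts, effective lengths and TPM, which Salmon had scaled by length and by depth. Gene TPM are sums over transcripts. Names and coordinates come from GENCODE vM21 on GRCm38, which named 45143 of 45706 genes and may differ from the annotation behind the counts. Strand settings of the quantification are not given in the sources used here. The files hold no comparisons made by the authors.

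Counts were tested in R 4.3.3 with edgeR 4.0.16 (TMM factors, filterByExpr by treatment with a count minimum of 10 and a total of 15, robust quasi-likelihood F test, no covariate) with Benjamini–Hochberg adjustment over 14962 genes and a threshold of 0.05. The standard error is the log2 fold change over the square root of F. DESeq2 1.42.0 and limma 3.58.1 (voom) were alternatives, and exact permutation tests of log2 CPM over 70 assignments used scipy 1.17.1. The edgeR fit without a block was tested on simulated data. Library totals were 26083936 to 31844861, and the floor of 3 counts covers counting error only.

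Wells of the same replicate number deviated from their treatment means together (correlations 0.51 to 0.602, over 0.1 in every pair). The numbers were therefore taken to pair the wells, which comes from these values and not from the labels. Wells of the same number also lie on the same side. These correlations thus cannot tell a pairing by number from the difference between the sides. The sides, replicates 1 and 2 against 3 and 4, were read from the same counts.

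The genes named are the 7 cyclases, their transcripts with at least 5% of the gene's TPM, the rest of the family, the most similar gene of each cyclase, and of each pathway list the DE genes and the lowest and highest log2 fold change. *Mchr1*, cell type markers, *Gpr3*, *Sstr2*, *Oprl1*, *Npy2r*, antisense neighbors and transcripts under 5% were added after values were seen. The cyclases and the lists were chosen with earlier results of these data known.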

Additional observations from a re-analysis of the deposited data

Results flagged for a closer look

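For *Adcy2*, vehicle replicate 2 was at 71.1 CPM, away from the other vehicle-treated wells. Its gap to the nearest well was 0.933 of the whole range of the group, above Dixon's 95% critical value for 4 samples. This was 1 of 16 groups of wells examined, and chance flags about 5% of such groups.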

How the results depend on the processing

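None of the 7 cyclases passed an adjusted *P* of 0.05 under any of the 22 other settings per gene, except that DESeq2 with the replicate block gave no adjusted *P* for *Adcy7*. Under every setting the difference in class ratio moved by less than 1 SD between wells, an SD that includes the difference between the sides. The count of DE genes (35) was 154 with DESeq2, 249 with DESeq2 and the replicate block, 7 with a length offset, 403 with limma voom and the replicate block, 269 in replicates 1 and 2 alone, 189 in replicates 3 and 4 alone, 596 with the replicate block, 668 with the side block, and 4 to 29 with 1 well left out (4 without vehicle replicate 4). The count of DE pathway genes (5) was 12, 17 and 21 with DESeq2, DESeq2 with the replicate block and limma voom with the replicate block, 16 and 17 in replicates 1 and 2 and in 3 and 4 alone, 23 with the replicate block, 24 with the side block, and 3 to 6 with 1 well left out (3 without vehicle replicate 4). Signs turned for *Adcy8* (0.07) and *Adcy2* (−0.01) in replicates 1 and 2 alone and for *Adcy5* (−0.0021) and *Adcy6* (−0.02) in replicates 3 and 4 alone. The cause was not tested. With 1 well left out, log2 fold changes ranged from −0.01 to 0.08 for *Adcy1*, −0.27 to −0.04 for *Adcy8*, 0.02 to 0.13 for *Adcy5*, 0.01 to 0.08 for *Adcy6*, −0.02 to 0.03 for *Adcy2*, 0.01 to 0.27 for *Adcy7* and 0.12 to 0.19 for *Adcy9*, the class ratio from −0.13 to 0.02, and the count of DE cyclase transcripts was 0 throughout. The sign turned for *Adcy1* without vehicle replicate 2 (−0.0048) or MCH replicate 4 (−0.01), and for *Adcy2* without vehicle replicate 2 (−0.02) or MCH replicate 3 (−0.02). As reads per kilobase of annotated exon, scaled to the summed TPM of the tested genes, the levels were 209 for *Adcy1*, 6.09 for *Adcy8*, 98.6 for *Adcy5*, 27.3 for *Adcy6*, 71.9 for *Adcy2*, 1.27 for *Adcy7* and 26.7 for *Adcy9*, and the cause of these moves was not tested. The annotated exon length was 8152 bases for *Adcy8*, whose single transcript has 5032. It was 12522 bases for *Adcy1*, against 12259 for Adcy1-201. Alternatives with a replicate block beside DESeq2 or limma and the fits of each side alone were chosen after seeing the data. *Adcy7*, with 44 to 77 counts per well, had the widest interval.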
